A study of Arabidopsis thaliana with 12 samples.

Results

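The 5 class III homeodomain-leucine zipper (HD-ZIP III) genes of Arabidopsis thaliana, PHB (PHABULOSA), PHV (PHAVOLUTA), REV (REVOLUTA), HB-8 and ATHB-15 (also CORONA), were examined together with the loci of miR165 and miR166. The genes were taken by their locus identifiers from a table of 24730 genes, together with any differential N6-methyladenosine (m6A) peak that overlapped them. All 5 had a row in the table and all 5 passed the minimum of 1 FPKM (fragments scaled to gene length and to the size of the library) set on the mean over the input libraries. Wild type was Col-0 with no further allele or agent. The mutant was dcl1 in the same ecotype, and the allele is not named in the labels. Both were grown untreated in a 16-h light and 8-h dark cycle. Their age is 20 days by its label and 3 weeks by the design text. The material is leaf by its tissue label, but seedlings by the extraction protocol and the design text. Each genotype had 3 biological replicates of input RNA-seq (a poly(A) library without immunoprecipitation) and 3 of m6A immunoprecipitation, 12 libraries in all.

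HD-ZIP III proteins are transcription factors with a homeodomain, a leucine zipper and a lipid-binding START domain. They promote adaxial (upper side) leaf fate, shoot meristem formation and the patterning of vascular tissue. Their transcripts carry a site that pairs with miR165 and miR166 within the START coding region. DCL1, the Dicer-like enzyme, cuts these microRNAs out of hairpins in their primary transcripts, AGO1 uses them to cleave target RNA, and AGO10 binds them and keeps them from AGO1. The LITTLE ZIPPER proteins, ZPR1 to ZPR4, pair with HD-ZIP III proteins into complexes that do not bind DNA, and their own genes are induced by HD-ZIP III factors.

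DCL1 transcript was low in every mutant library, at 0.406 to 0.632 FPKM against 4.53 to 6.0 FPKM in wild type. The chlorophyll-binding protein gene CAB1, a marker of green tissue chosen after its values were seen, stood at 11480 FPKM or more in every library. The meristem gene STM (KNOX homeobox) was at 14.5 to 22.7 FPKM and KNAT1, of the same family, at 14.0 to 17.1 FPKM; both are genes of the shoot apex. The stem cell genes WUS (0 to 0.252 FPKM) and CLV3 (0 to 0.296 FPKM) and the root genes IRT1, CASP1 and PLT2 (at most 0.422 FPKM) were near 0. The sum of FPKM lay between 616106 and 622995 per library. FPKM carry no sequencing depth, which is therefore unknown here. In whole plants or organs, a change in the number of cells that express a gene and a change in RNA per cell cannot be told apart.

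Among the HD-ZIP III genes, PHB rose in dcl1 and the other 4 did not pass the test. PHB transcript was 1.44-fold higher in the mutant, while PHV, REV and ATHB-15 differed from wild type by 1.04-fold or less and HB-8 by 1.20-fold. Of 5 tested, 1 rose and 0 fell. Of all 17925 genes tested, 30.6% were called, 17.8% as rises and 12.8% as falls, so 1 rise among 5 is near the background and says nothing about the family as a group. Rises were 58.2% of all calls, and 40.0% of them after quantile normalization. The count of 0 falls was the same at an unadjusted p under 0.05. The median log2 change of the 5 genes was 0.06, beside 0.03 over all genes tested.

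PHB (AT2G34710, TAIR10 chromosome 2, 14639323 to 14644273, minus strand) promotes adaxial fate and, together with PHV and REV, the formation of the shoot meristem. Replicates 1, 2 and 3 of wild type held 11.2, 10.6 and 12.4 FPKM, and those of dcl1 held 17.7, 16.7 and 14.8 FPKM; values of other genes are given in the same order. All 3 mutant libraries lay above all 3 wild-type libraries. Groups that did not overlap were seen for 48.4% of all genes tested. The means were 11.4 ± 0.913 and 16.4 ± 1.48 FPKM (SD, n = 3 each), a log2 change of 0.49 on the log2(FPKM + 1) scale (SE 0.09, 95% interval 0.27 to 0.70; limma adjusted p = 0.0082). The authors' deposited table lists PHB at a fold of 1.44 with a q-value of 0.00041 and does not mark it as significant.

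PHV (AT1G30490, chromosome 1, 10796135 to 10800961, minus strand) is the closest relative of PHB and acts redundantly with it. Its FPKM was 11.3, 11.6 and 12.2 in wild type and 12.8, 11.9 and 11.3 in dcl1. The genotypes overlapped, with the lowest mutant library at the level of the lowest wild-type library. The log2 change was 0.03 (SE 0.07, 95% interval -0.14 to 0.21; limma adjusted p = 0.77). The upper bound for PHV lay below the lower bound for PHB. So did that for REV (0.21 against 0.27), but not those for HB-8 and ATHB-15 (0.50 and 0.31). Intervals set side by side are not a test of a difference between genes.

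REV (AT5G60690, chromosome 5, 24397023 to 24402195, plus strand) directs axillary and floral meristem formation and vascular polarity. Its FPKM was 8.08, 7.31 and 8.60 in wild type and 8.19, 8.44 and 7.72 in dcl1. Every mutant library lay inside the wild-type range. The log2 change was 0.02 (SE 0.08, 95% interval -0.17 to 0.21; limma adjusted p = 0.87). The last 67 bases of REV overlap AT5G60700 on the opposite strand, and strand use in counting is not stated.

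HB-8 (AT4G32880, chromosome 4, 15863452 to 15868625, minus strand) is an early marker of procambium, the tissue that gives rise to xylem and phloem. Its FPKM was 5.63, 6.52 and 6.63 in wild type and 7.32, 8.82 and 6.33 in dcl1. Mutant replicates 1 and 2 lay above wild type, and mutant replicate 3 lay within it. The log2 change was 0.22 (SE 0.12, 95% interval -0.07 to 0.50; limma adjusted p = 0.21). That interval holds the value found for PHB, so for HB-8 these libraries show neither a rise nor its absence.

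ATHB-15 (AT1G52150, chromosome 1, 19409711 to 19414678, minus strand) acts in vascular development and restrains meristem growth. Its FPKM was 14.4, 12.2 and 15.8 in wild type and 13.3, 15.2 and 15.5 in dcl1. The mutant libraries lay within the wild-type range. The log2 change was 0.06 (SE 0.11, 95% interval -0.19 to 0.31; limma adjusted p = 0.70). After quantile normalization the small changes of PHV, REV and ATHB-15 turned negative, while that of PHB stayed positive and called. The median log2 change of all genes tested moved as well, from 0.0319 to -0.0554.

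**Figure D1:**
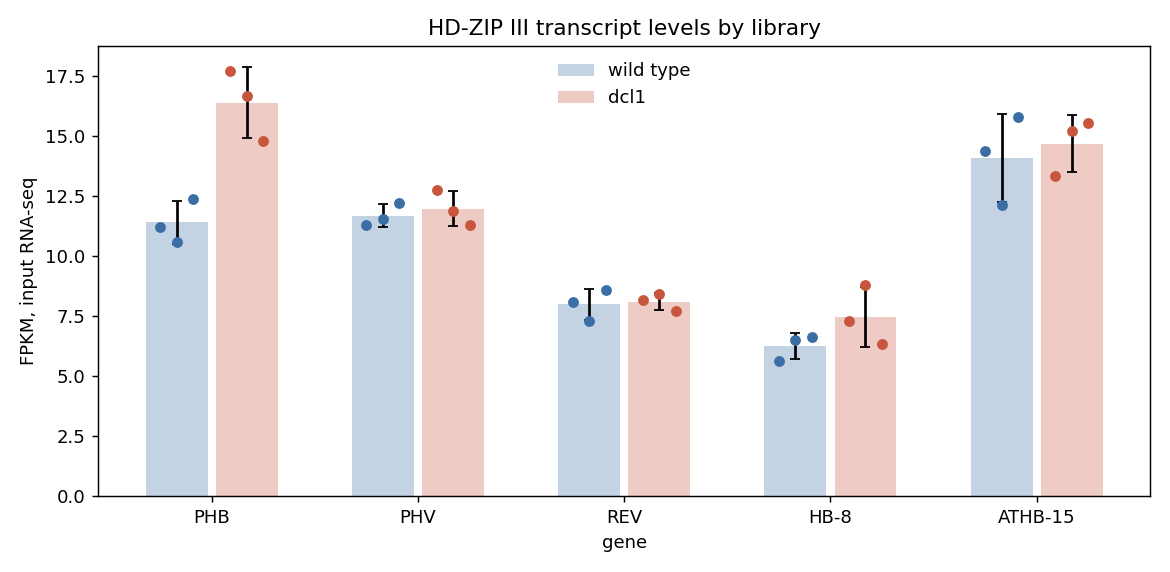
FPKM of the 5 HD-ZIP III genes (y axis) in the 3 wild-type (blue) and 3 dcl1 (red) input libraries; points are libraries, bars are means and error bars are SD. The PHB libraries are separated by genotype, at 10.6 to 12.4 against 14.8 to 17.7 FPKM, and those of the other 4 genes overlap.

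The order of levels within the family differed between the genotypes at its upper end. In wild type the order by mean FPKM was ATHB-15 (14.1), PHV (11.7), PHB (11.4), REV (8.0) and HB-8 (6.26). There, neighbours from ATHB-15 to PHB overlapped in their libraries, while PHB stood clear of REV and REV clear of HB-8. In dcl1 the order was PHB (16.4), ATHB-15 (14.7), PHV (12.0), REV (8.12) and HB-8 (7.49). PHB and ATHB-15 overlapped there, as did REV and HB-8, whereas ATHB-15 stood clear of PHV and PHV clear of REV. PHB made up 22.2% ± 0.137 of the summed FPKM of the 5 genes in wild type and 27.9% ± 1.72 in dcl1 (SD, n = 3 each). The summed level was 48.1 to 55.6 FPKM in wild type and 55.7 to 61.1 FPKM in dcl1, so that the highest wild-type library and the lowest mutant library lay next to each other.

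Ratios within a library do not depend on how libraries were scaled. The log2 ratio of PHB to PHV was -0.01, -0.12 and 0.02 in the wild-type libraries and 0.47, 0.49 and 0.39 in the dcl1 libraries. PHB and PHV were thus near equal in FPKM in wild type and unequal in every mutant library. The log2 ratio of PHB to REV went from 0.51 ± 0.0329 in wild type to 1.01 ± 0.09 in dcl1, and that of PHB to ATHB-15 from -0.30 ± 0.0894 to 0.16 ± 0.241 (SD, n = 3 each). For these 3 of 10 pairs the genotypes did not overlap. All 3 hold PHB, so they are not separate results. Of single genes tested, 48.4% did not overlap, and the share among gene pairs in general was not computed. Each of the 3 pairs had an exact two-sided permutation p of 0.1, the smallest that 3 against 3 libraries can give. After Benjamini-Hochberg adjustment over the 10 pairs it was 0.333. The ratio of PHB to HB-8 rose by 0.27 on average, with overlapping libraries (exact permutation p = 0.2, adjusted 0.333). Among the 6 pairs without PHB, the mean difference between genotypes ran from -0.22 (REV to HB-8) to 0.18 (HB-8 to ATHB-15), with overlapping libraries in each.

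**Figure D2:**
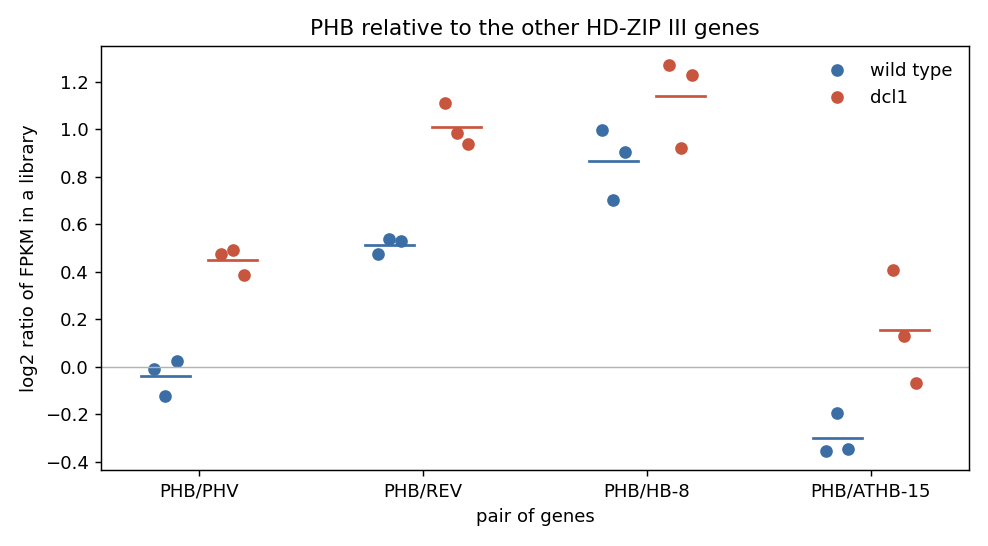
Log2 ratio of PHB FPKM to that of each other HD-ZIP III gene within a library (y axis), with wild type in blue and dcl1 in red; points are libraries and lines are means. The genotypes are apart for PHV, REV and ATHB-15, for example at -0.12 to 0.02 against 0.39 to 0.49 for PHV, and overlap for HB-8.

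Across the 6 input libraries the HD-ZIP III genes varied together only in part. Pearson's r of log2(FPKM + 1) between members ran from -0.0831 (PHV and ATHB-15) to 0.712 (PHB and HB-8). These are descriptions over 6 libraries of 2 genotypes, and a shared genotype difference enters them. The 3 tested genes most like PHB by the same measure were FP3 (AT5G63530, r = 0.998), AT5G04070 (r = 0.997) and SIP3 (AT4G30960, r = 0.997). FP3 rose by 0.52 on the log2 scale (limma adjusted p = 0.0049) and SIP3 by 0.34 (limma adjusted p = 0.017). AT5G04070 did not pass (log2 change 0.125, limma adjusted p = 0.27). Such genes were picked from all tested genes by likeness over the same 6 libraries. Their changes are therefore no separate support for the PHB rise, and a high r over 6 libraries says little. For HB-8 they were AT5G45670 (r = 0.994), AT5G19760 (r = 0.991) and VFB2 (AT3G50080, r = 0.987). For PHV they were LBD4 (AT1G31320, r = 0.987), AT3G09190 (r = 0.985) and AFB3 (AT1G12820, r = 0.982). For REV they were AT2G05160 (r = 0.990), AT5G16720 (r = 0.988) and AT4G27435 (r = 0.984). For ATHB-15 they were AT1G20300 (r = 0.998), AT1G36940 (r = 0.995) and AT1G49980 (r = 0.994).

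Of the 3117 differential m6A peaks, 1 overlapped an HD-ZIP III gene. In the authors' deposited table it runs from 19409710 to 19410157 on chromosome 1 (448 bases) and lies on the last 447 bases of ATHB-15, at the 3' end of this minus-strand gene. The table annotates it as 3' UTR but assigns it to the neighbouring gene AT1G52140, which ends 1456 bases before the peak starts. By the authors' values the peak was higher in dcl1 by 0.20 on the log2 scale (p = 0.0046, FDR 0.0229). No peak was assigned to any of the 5 genes by the authors' gene column. Among all tested genes, 18.5% were overlapped by a differential peak and 13.9% were assigned one, so 1 overlap among 5 genes and 0 assignments are not particular to the family. The table lists only peaks with a p-value of 0.049 or less, so m6A that did not differ between genotypes on PHB, PHV, REV or HB-8 would not appear in it. ATHB-15 transcript itself showed no change that passed the test, and AT1G52140 fell (log2 change -0.40, limma adjusted p = 0.037).

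MIR166a and MIR166b, loci of miR166 primary transcripts, had higher levels in dcl1. Of the 9 known MIR165 and MIR166 loci, 6 had values, 2 reached the minimum for the test and both of these rose. The minimum is a mean over both genotypes, and these loci passed it through their high level in the mutant, so the count of 2 supports nothing about the loci as a set. MIR166c, MIR166d and MIR166g had no values and so were not analysed here. Mature microRNAs were not measured in these poly(A) libraries.

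MIR166a (AT2G46685, chromosome 2, 19176126 to 19176261) was at 0.563, 0.517 and 0.0667 FPKM in wild type and at 17.4, 15.3 and 20.4 FPKM in dcl1. Every mutant library stood far above every wild-type library. The log2 change on the log2(FPKM + 1) scale was 3.77 (SE 0.17, limma adjusted p = 2.8e-05), and the authors' deposited table lists a fold of 46.3 without a pseudocount. MIR166b (AT3G61897, chromosome 3, 22922210 to 22922321) was at 0.144 FPKM in wild-type replicate 1, listed at 0 in wild-type replicates 2 and 3, and at 7.20, 8.28 and 7.83 FPKM in dcl1. Its log2 change was 3.07 (SE 0.11, limma adjusted p = 1e-05), a value that depends on the pseudocount since wild type was near 0. MIR166a and MIR166b passed the minimum only through their level in dcl1, so these adjusted p-values are not independent of that filter. With no minimum FPKM, the limma adjusted p was 0.000298 for MIR166a and 9.06e-05 for MIR166b.

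The other 4 loci stayed under the minimum and are given as values. MIR166e (AT5G41905) was listed at 0 in wild-type replicates 1 and 2 and at 0.0631 FPKM in replicate 3, and reached 0.934, 1.26 and 1.44 FPKM in dcl1. MIR166f (AT5G43603) ran from 0.0332 to 0.258 FPKM in wild type and from 0.301 to 0.819 FPKM in dcl1. Both were separated by genotype, as were 48.4% of all genes tested, and both were at low levels. MIR165a (AT1G01183) was listed at 0 in wild-type replicates 1 and 2, at 0.394 FPKM in replicate 3, and at 0.306 to 0.545 FPKM in dcl1, so the genotypes overlapped. MIR165b (AT4G00885) was listed at 0 in all libraries but dcl1 replicate 2, where it was at 0.0518 FPKM. The 6 loci are 91 to 136 bases long in the table, which makes their FPKM imprecise.

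**Figure D3:**
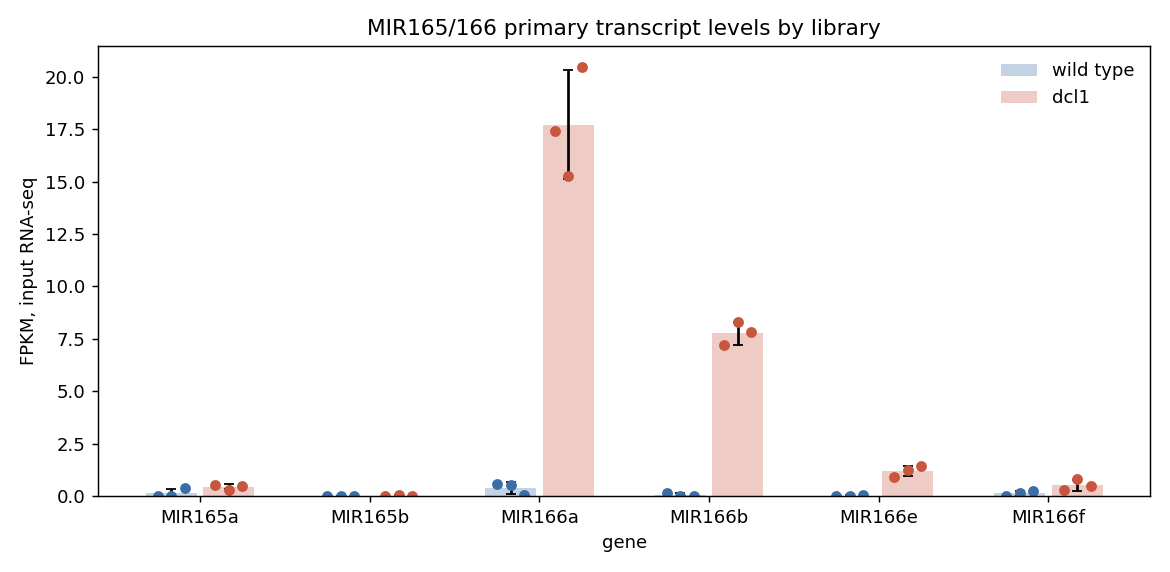
FPKM of the 6 MIR165 and MIR166 loci (y axis) in the 3 wild-type (blue) and 3 dcl1 (red) input libraries; points are libraries, bars are means and error bars are SD. MIR166a and MIR166b stand at 15.3 to 20.4 and 7.20 to 8.28 FPKM in dcl1 and below 0.6 FPKM in wild type.

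The argonautes that handle these microRNAs did not pass the test. AGO10 (AT5G43810) was at 9.08, 7.52 and 9.35 FPKM in wild type and 8.91, 8.33 and 9.75 FPKM in dcl1, with overlapping genotypes (log2 change 0.05, 95% interval -0.18 to 0.29; limma adjusted p = 0.71). AGO1 (AT1G48410), itself the target of another microRNA, was at 25.4 to 29.4 FPKM in wild type and 30.1 to 31.1 FPKM in dcl1 (log2 change 0.13, 95% interval -0.05 to 0.30; limma adjusted p = 0.24). Of these 2 genes, 0 also passed at an unadjusted p under 0.05. Of all genes tested, 30.6% were called, so 0 of 2 is not particular to the argonautes.

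All 4 LITTLE ZIPPER genes fell in dcl1, where 12.8% of all genes tested fell. ZPR2 (AT3G60890) was at 10.1, 7.61 and 8.91 FPKM in wild type and 3.90, 4.63 and 3.81 FPKM in dcl1, with every mutant library below every wild-type library. Its log2 change was -0.94 (SE 0.12, limma adjusted p = 0.0015), from means of 8.86 ± 1.23 to 4.12 ± 0.451 FPKM (SD, n = 3 each). ZPR1 (AT2G45450), the most abundant of them per length, went from 16.5 ± 1.02 to 12.5 ± 0.732 FPKM (log2 change -0.38, limma adjusted p = 0.012). ZPR4 (AT2G36307) was at 3.76, 3.18 and 2.66 FPKM in wild type and 1.84, 1.90 and 2.0 FPKM in dcl1 (log2 change -0.52, limma adjusted p = 0.015). ZPR3 (AT3G52770), which acts in the shoot meristem, was at 2.42, 2.55 and 3.57 FPKM in wild type and 1.32, 1.19 and 2.14 FPKM in dcl1 (log2 change -0.60, limma adjusted p = 0.038). The genotypes did not overlap in any of the 4, as in 48.4% of all genes tested. The median log2 change of the 4 was -0.56. Leaving out wild-type replicate 1 kept 1 call, that of ZPR2 (adjusted p = 0.0503 for ZPR1, 0.063 for ZPR3 and 0.053 for ZPR4), and leaving out wild-type replicate 2 kept 2, those of ZPR1 and ZPR2 (0.08 for ZPR3 and 0.0512 for ZPR4). ZPR3 also missed the threshold when the third wild-type library (0.0851) or either of mutant replicates 1 and 2 (0.099 and 0.105) was dropped, and with no minimum FPKM (0.061).

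A wider list of 14 genes reported in the literature as induced or bound by HD-ZIP III factors moved in both directions. It holds the 4 LITTLE ZIPPER genes, and of all 14 tested genes 2 rose and 9 fell (median log2 change -0.48), beside 17.8% and 12.8% of all genes tested. WRKY53 (AT4G23810), a senescence regulator bound by REV, was at 4.36, 6.65 and 9.13 FPKM in wild type and 16.7, 25.6 and 23.6 FPKM in dcl1 (log2 change 1.60, limma adjusted p = 0.0035). HAT3 (AT3G60390), an HD-ZIP II factor that promotes adaxial fate, was at 10.8, 9.19 and 9.51 FPKM in wild type and 16.2, 14.2 and 17.3 FPKM in dcl1 (log2 change 0.64, limma adjusted p = 0.0033). In both, all 3 mutant libraries lay above all 3 wild-type libraries, and groups did not overlap in 48.4% of all genes tested. HB-2 (AT4G16780), an HD-ZIP II factor of the shade response, was at 89.3, 83.6 and 64.0 FPKM in wild type and at 15.5, 16.7 and 16.5 FPKM in dcl1 (log2 change -2.20, SE 0.12, limma adjusted p = 7.2e-05). HB4 (AT2G44910), of the same family and also shade-induced, was at 11.6 and 12.2 FPKM in wild-type replicates 1 and 2, at 4.26 FPKM in replicate 3 and at 2.61 to 3.15 FPKM in dcl1 (log2 change -1.33, limma adjusted p = 0.021). Wild-type replicate 3 thus lay nearer to the mutant for HB4, and without it the log2 change was -1.76. Dropping wild-type replicate 1 or 2, or mutant replicate 2 or 3, ended the HB4 call (adjusted p from 0.0573 to 0.0773). The 11 calls on the list became 4 when wild-type replicate 1 was dropped, 6 for wild-type replicate 2, 7 for mutant replicate 1 or 3, and 7 with no minimum FPKM. TAA1, an auxin synthesis enzyme, ACL5, a thermospermine synthase of the xylem, and BUD2, which supplies its substrate, did not pass (log2 changes 0.13, -0.20 and -0.24; limma adjusted p = 0.32, 0.23 and 0.26).

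The HD-ZIP II and HD-ZIP IV genes do not carry the miR165 and miR166 site. Of 8 tested HD-ZIP II genes, 2 rose and 5 fell (median log2 change -0.54), beside 17.8% and 12.8% of all genes tested. The 5 falls became 3 when wild-type replicate 1 or 2, or mutant replicate 2 or 3, was dropped. HAT2, HAT3, HB-2 and HB4 are among these 8 and also among the 14 reported targets, so the lists are not independent. Besides HAT3, HAT14 (AT5G06710) rose by 0.50 (limma adjusted p = 0.0055), and besides HB-2 and HB4, HAT1 (AT4G17460) fell from 23.8 ± 1.55 to 11.4 ± 3.35 FPKM (log2 change -1.04, limma adjusted p = 0.0064). The HD-ZIP IV genes, which act in the epidermis and also carry a START domain, are the nearest relatives by domain. Of 9 tested HD-ZIP IV genes, 2 rose and 1 fell (median log2 change 0.06), a share near the 30.6% of all genes called. HDG12 (AT1G17920) rose by 0.58 (limma adjusted p = 0.012), HDG1 (AT3G61150) by 0.44 (limma adjusted p = 0.013), and HDG2 (AT1G05230) changed by -0.31 (limma adjusted p = 0.045). Dropping any single library ended the HDG2 call (adjusted p from 0.0511 to 0.127), as did no minimum FPKM (0.07). The rise of PHB lay within the range of the rises of HDG1 and HDG12. No test of a difference between the families was made.

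**Figure D4:**
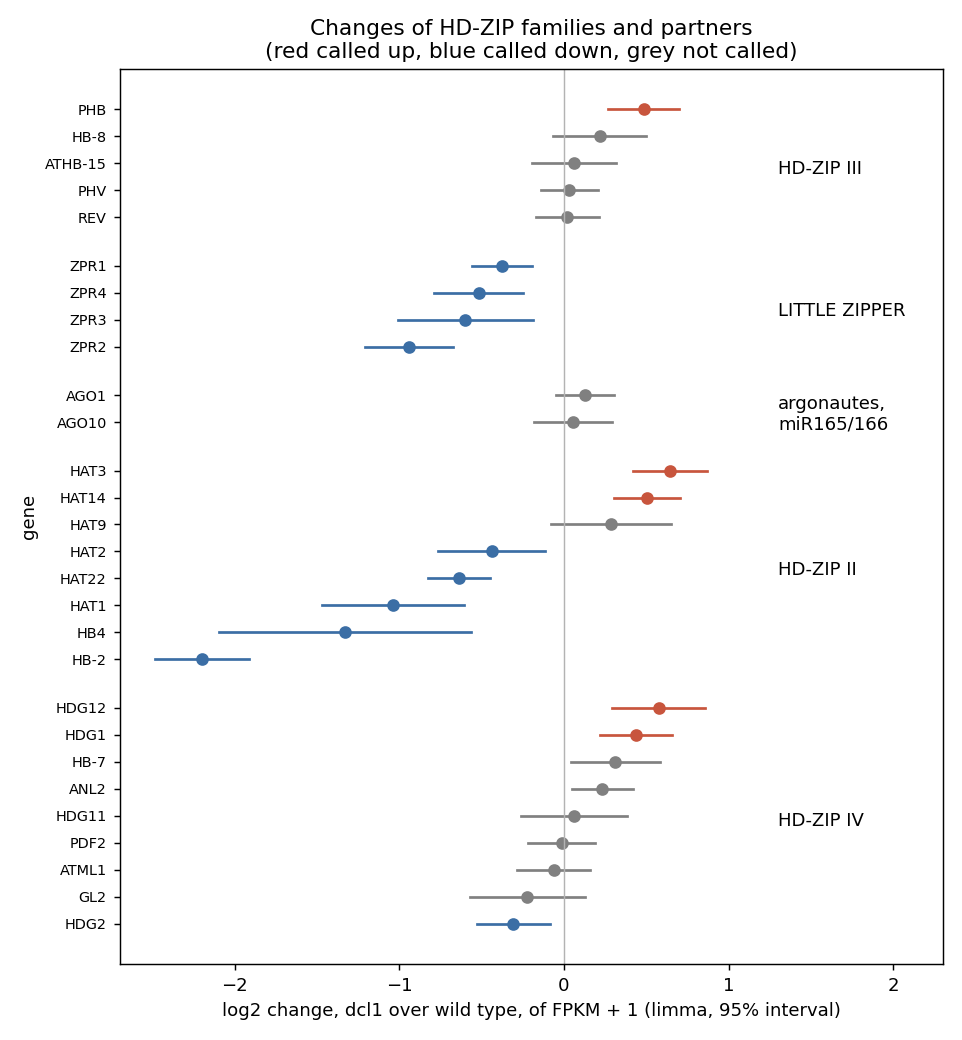
Log2 change of dcl1 over wild type on the log2(FPKM + 1) scale (x axis) for the tested HD-ZIP III, LITTLE ZIPPER, argonaute, HD-ZIP II and HD-ZIP IV genes (y axis); points are limma estimates, lines are 95% intervals, red is called up, blue called down and grey not called. PHB (0.49) is the called HD-ZIP III gene, the 4 LITTLE ZIPPER genes lie between -0.94 and -0.38, and HB-2 lies at -2.20.

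Among 9 tested genes of the abaxial (lower) leaf side, which HD-ZIP III activity opposes, there were 5 rises and 1 fall in dcl1 (median log2 change 0.38), beside 17.8% and 12.8% of all genes tested. The other 3, KAN, KAN2 and YAB5, did not pass. The auxin response factors ETT (AT2G33860) and ARF4 (AT5G60450), both targets of trans-acting siRNAs, rose by 0.74 (limma adjusted p = 0.0011) and 0.50 (limma adjusted p = 0.0046). KAN3 (AT4G17695), of the KANADI family, rose by 0.47 (limma adjusted p = 0.0045), and the YABBY gene AFO (AT2G45190, also FIL) fell from 22.6 ± 2.37 to 15.2 ± 1.31 FPKM (log2 change -0.54, limma adjusted p = 0.0071). In KAN (AT5G16560, also KANADI1) wild-type replicate 3, at 6.43 FPKM, matched the mutant libraries at 6.42 to 6.50 FPKM, and the gene did not pass (limma adjusted p = 0.11). The sum of the list lay at 92.0 to 104 FPKM in wild type and 111 to 115 FPKM in dcl1.

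Of 10 tested genes of procambium and xylem, where HD-ZIP III genes act, 4 rose and 4 fell (median log2 change 0.02), beside 17.8% and 12.8% of all genes tested. With no minimum FPKM the list had 4 rises and 6 falls. NAC101, IRX3, IRX1, CESA4 and VND7 were under the minimum and were not tested. In dcl1 the first 4 of them were at 0.49, 0.589, 0.407 and 0.431 of the wild-type mean. Their genotypes did not overlap, as in 48.4% of all genes tested, at low levels. VND7 was at 0.76, with overlapping genotypes. CLE44 (AT4G13195), a signal peptide from phloem to procambium, rose by 0.64 (limma adjusted p = 0.0042), MP (AT1G19850), the auxin response factor that activates HB-8, by 0.43 (limma adjusted p = 0.016) and LHW (AT2G27230) by 0.41 (limma adjusted p = 0.0061). The xylem proteases XCP2 (AT1G20850) and XCP1 (AT4G35350) fell by 0.62 (limma adjusted p = 0.010) and 0.58 (limma adjusted p = 0.025), and TMO5 (AT3G25710, listed as BHLH32), the partner of LHW, fell by 0.49 (limma adjusted p = 0.011). Dropping wild-type replicate 1 or 2, or mutant replicate 1 or 3, ended the XCP1 call (adjusted p from 0.0577 to 0.0883). The 8 calls became 5 when wild-type replicate 1 or mutant replicate 1 or 3 was dropped. The list summed to 105 to 116 FPKM in wild type and 114 to 118 FPKM in dcl1.

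PHB, PHV and REV are also expressed in the shoot meristem. The summed level of 6 meristem markers was 36.9 to 46.8 FPKM in wild type and 48.8 to 52.4 FPKM in dcl1, and 2 of 4 tested genes rose, beside 17.8% of all genes tested. In limma 0 of these 4 fell, also at an unadjusted p under 0.05. WUS and CLV3 were under the minimum and were not tested. The CLV3 mean was 0.248 FPKM in wild type and 0.0860 FPKM in dcl1, and the WUS mean 0.0791 and 0.160 FPKM. Both are near 0, with overlapping genotypes. KNAT6 (AT1G23380) rose by 0.38 (limma adjusted p = 0.020) and STM by 0.34 (limma adjusted p = 0.049), while KNAT1 had a log2 change of 0.00 (limma adjusted p = 0.99) and KNAT2 one of 0.48 (limma adjusted p = 0.0503). Both calls ended when wild-type replicate 1 or 2, or mutant replicate 2 or 3, was dropped (adjusted p from 0.0615 to 0.12), and that of STM also for mutant replicate 1 (0.0851). The STM call also ended with no minimum FPKM (0.0707) and after quantile normalization (0.0785). The phloem markers SUC2, APL and HA3 summed to 30.1 to 34.7 FPKM in wild type and 31.2 to 35.9 FPKM in dcl1. In limma 0 of 3 were called, also at an unadjusted p under 0.05, beside 30.6% of all genes called. A count of 0 among so few genes says nothing about the phloem. SUC2 had the largest change (0.17, limma adjusted p = 0.19). The part of the meristem markers' levels in the PHB result was not tested.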

How the data were processed

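Messenger RNA was measured in 6 input libraries of wild type and dcl1. The submitters' processing notes name fastp, HISAT2, HOMER, ChIPseeker, StringTie and edgeR with the TAIR10 build; roles and versions are not given in the sources used here. The authors deposited FPKM per gene and library, per the file headers, and a comparison table that holds a fold ratio of mean FPKM, the log2 of that ratio, p-values and q-values. The authors' deposited peak table gives, per the file headers, a log2 change, a p-value and the log10 of the FDR per m6A peak; its scaling is not stated, and values of single immunoprecipitates were not used here. Peak starts were printed as listed.

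log2(FPKM + 1) of the 17925 genes averaging 1 FPKM or more was fitted with limma 3.58.1 (R 4.3.3; moderated variances with a trend), two-sided, with Benjamini-Hochberg adjustment over all of them and a threshold of 0.05. It was tested on simulated data in which the changes were larger than that of PHB and fewer genes changed. That trial therefore does not cover changes of the size seen for PHB. The pseudocount of 1 FPKM shrinks changes of low genes. Ratios of genes were compared by exact permutation (scipy 1.17.1). Peaks were matched by the authors' gene column and by an overlap of at least 1 base. Symbols came from RefSeq TAIR10.1 and matched all 88 listed genes. Close paralogs such as PHB and PHV may share reads, and how these were counted is not stated.

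The members, the lists and the tests were chosen with earlier results of these data known. Named genes were all HD-ZIP III, MIR165 and MIR166, LITTLE ZIPPER and argonaute genes, up to 3 called rises and 3 called falls per other list with genotypes that did not overlap (the largest change where there was none), and the 3 genes of highest correlation per member. TAA1, ACL5, BUD2, KAN, KAN2, YAB5, KNAT1, KNAT2, WUS, CLV3, APL, HA3, the root markers and AT1G52140 fall outside this rule. NAC101, IRX3, IRX1, CESA4 and VND7 do too, and all of these were named after their values were seen. Other settings tried were other pseudocounts, minimums and scalings, no variance trend, the replicate number as a block, and each library left out.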

Additional observations from a re-analysis of the deposited data

How the results depend on the processing

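The PHB rise and the absence of a call for PHV, REV, HB-8 and ATHB-15 held under the 14 other settings tried. The PHB log2 change ran from 0.38 (quantile normalization or a pseudocount of 5 FPKM) to 0.55 (without dcl1 replicate 3), with adjusted p up to 0.0353, and from 0.43 to 0.55 with 1 library left out. The directions of the smaller changes did not hold. With median-ratio scaling PHV was at -0.00061 and REV at -0.011, and after quantile normalization PHV was at -0.068, REV at -0.084 and ATHB-15 at -0.044. Quantile normalization also moved the median of all genes tested, from 0.0319 to -0.0554. PHB lay 0.454 above that median before and 0.439 above it after. With 1 library left out, PHV ran from -0.011 to 0.069, REV from -0.035 to 0.069 and ATHB-15 from -0.035 to 0.14; for the ratios, PHV to REV ran from -0.028 to 0.0663, PHV to ATHB-15 from -0.146 to 0.0645 and REV to ATHB-15 from -0.118 to 0.0355. AGO10 was at -0.044 after quantile normalization and ran from -0.034 to 0.11 with 1 library left out. Rises were 58.2% of all 5480 calls and 40.0% of 6197 after quantile normalization. All calls ran from 3205 to 5663 with 1 library left out, and those over the fixed lists, 36 in all, from 23 to 35. With a minimum of 5 FPKM, 1 MIR166 locus was called (MIR166a) and 2 LITTLE ZIPPER genes were, since the others were no longer tested; with no minimum, 3 loci were called. Differential peaks on HD-ZIP III genes numbered 0 by the authors' gene column, also with an FDR under 0.05, and 1 by overlap.

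Same-numbered libraries of the genotypes deviated together weakly (r = 0.085, 0.0608 and 0.15). Libraries with different numbers had r from -0.172 to 0.116. These values leave a pairing undecided and the labels state none, so the numbers were not taken to pair libraries. With the replicate block 5138 genes were called, PHB kept its call (adjusted p = 0.0192), and STM and HDG2 missed the threshold (0.0624 and 0.0769). STM also missed it with no minimum (0.0707), no variance trend (0.0589), a pseudocount of 0.1 FPKM (0.0505) and quantile normalization (0.0785).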
